A study of Mus musculus with 35 samples.

Results

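The genes described here are 9 members of the tumour necrosis factor (TNF) system: the ligands Tnf, Tnfsf9, Tnfsf10, Tnfsf15 and Ltb, the TNF receptors Tnfrsf1a and Tnfrsf1b, and the receptor adaptors Traf1 and Traf2. They were chosen by symbol, and each of the 9 symbols matched 1 of the 47069 Ensembl gene rows of the expression files, of which 46488 carry a symbol in GENCODE M21. Expression was measured by RNA-seq in bone marrow-derived macrophages (BMDMs), cells grown from the bone marrow of C57BL/6 mice in medium conditioned by L929 fibroblasts, of wild-type genotype or labelled AMPKa1-/-, that is, lacking the catalytic alpha 1 subunit of AMP-activated protein kinase. Macrophages of each genotype were exposed for 24 h to vehicle (DMSO), to the synthetic glucocorticoid dexamethasone (Dex, 100 nM), to lipopolysaccharide (LPS, 100 ng/ml), a bacterial cell wall component, to LPS + Dex, to damage-associated molecular patterns (DAMPs, 1 µg/ml, of a kind the labels do not name) or to DAMPs + Dex. Each of the 12 groups had 3 libraries but one: for wild-type LPS, replicate 1 was not analysed here and the group had 2 libraries (replicates 2 and 3). This gave 17 wild-type and 18 labelled AMPKa1-/- libraries, 35 in all. The labels do not give the age or sex of the mice, which part of the gene was deleted or in which cells. The study's methods give mixed-sex cohorts and an age range in weeks for its experiments as a whole, not for each library. Library size, read from the FPKM value of a single fragment, ranged from 15837203 to 31955298 fragments with a median of 19973568, and a single fragment on a transcript of 1 kb was worth 0.0313 to 0.0631 FPKM.

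TNF superfamily ligands are made as membrane proteins that act as trimers, on the cell surface or after cleavage. Their receptors either carry a death domain, as TNFR1 (Tnfrsf1a) does, or recruit TRAF adaptors directly, as TNFR2 (Tnfrsf1b) does, and both routes lead to NF-κB and MAP kinase signalling. Macrophages are a main source of TNF after activation of Toll-like receptors, and glucocorticoids are widely used to restrain its production.

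The genotype labels were checked first. Prkaa1, which encodes AMPKα1, stood at 15.9, 11.8 and 15.3 FPKM in the wild-type vehicle libraries and at 14.8, 16.5 and 15.4 FPKM in those labelled AMPKa1-/-. Its mean was lower in the labelled AMPKa1-/- than in the wild-type group with Dex (18.6 against 22.8 FPKM), LPS (10.2 against 12.9) and LPS + Dex (11.7 against 14.3), and higher in vehicle, DAMPs and DAMPs + Dex. The libraries of neighbouring group means overlapped throughout. The gene-level value therefore does not check the label, and these libraries are called labelled KO throughout. The macrophage markers reported here were all expressed, with Lyz2 (lysozyme) the most abundant at a mean of 24097 FPKM, Adgre1 (F4/80) at a median of 989 FPKM, Cd68 at 902, Spi1 (PU.1) at 725, Csf1r (the receptor that sustains macrophages) at 537, Cd14 (the LPS co-receptor) at 323, Fcgr1 at 70.3, Itgam at 62.8 and Mertk at 44.2 FPKM. Of the markers of other cells, 0 of 6 for mast cells and basophils, 1 of 8 for B cells, 1 of 10 for T and NK cells, 1 of 7 for dendritic cells, 4 of 10 for neutrophils and 4 of 7 for fibroblasts had a mean of at least 1 FPKM. The T and NK cell markers other than Cd4, which macrophages can also express, summed to at most 2.12 FPKM in any library. Blk (B cells) and Fcer1a and Tpsb2 (mast cells) were listed at 0 in every library. The neutrophil sum reached 134 FPKM in a wild-type LPS library, nearly all of it the granule protein gene Camp (highest 133 FPKM). Mmp8, the most abundant marker of that list by mean, peaked at 118 FPKM in another library, with Ngp and Ltf reaching 7.56 and 6.20 FPKM, while Ly6g, Retnlg, Mpo, Elane, Prtn3 and Cxcr2 stayed at or below 0.475 FPKM. The dendritic cell sum reached 112 FPKM through the chemokine receptor gene Ccr7 (highest 110 FPKM), with Flt3 and Zbtb46 at or below 0.686 FPKM, and the fibroblast sum reached 24.7 FPKM. In such bulk samples, fewer expressing cells and less RNA per cell cannot be told apart.

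Tnf (chr17:35199381-35202007, minus strand, GRCm38) and Ltb (chr17:35194439-35196320, plus strand) are neighbours in the major histocompatibility complex, with 3061 bases between their annotated ends. They behaved differently across the treatments (at most 2.07 FPKM in any wild-type library for Ltb, a range of several orders of magnitude for Tnf). The 250 bases before the start of each gene in RefSeq (GRCm38.p6) are therefore shown, each 5′ to 3′ on the strand of its gene, with motif matches in capitals.
Tnf, chr17:35202008-35202257: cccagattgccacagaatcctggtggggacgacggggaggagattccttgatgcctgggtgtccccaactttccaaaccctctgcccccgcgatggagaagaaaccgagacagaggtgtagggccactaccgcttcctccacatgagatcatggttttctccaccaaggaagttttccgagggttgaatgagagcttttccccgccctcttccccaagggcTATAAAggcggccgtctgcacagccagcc
Ltb, chr17:35194257-35194506: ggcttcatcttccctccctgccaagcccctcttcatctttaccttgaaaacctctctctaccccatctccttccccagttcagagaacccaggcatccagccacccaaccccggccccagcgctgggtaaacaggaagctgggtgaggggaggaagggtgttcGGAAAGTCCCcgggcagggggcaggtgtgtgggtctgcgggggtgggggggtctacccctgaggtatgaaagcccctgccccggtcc
A TATA box (TATAAA, searched on both strands) began 29 bases before the Tnf start, and 13.6% of the 32851 promoter windows of the table hold this motif. A κB-like motif (GGG, any 2 bases, then TTTCC, searched on both strands and on the opposite strand in Ltb) began 87 bases before the Ltb start, and 1.63% of all windows hold one. Traf2 held the same motif after its start. The AP-1-like motif TGANTCA and the glucocorticoid response element core ACANNNTGT, present in 7.81% and 6.85% of windows, were found in none of the 8 members with a promoter entry, a statement on these letters in 300 bases only. The entry for Tnfsf9 was not matched.

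Differential expression was tested with limma on log2(FPKM + 1) in one model of the 12 groups, over the 11354 genes with a mean of at least 1 FPKM, and a gene was called at a Benjamini-Hochberg adjusted p under 0.05. Of the 9 members 7 passed this filter. Tnfsf10 (mean 0.698 FPKM) and Tnfsf15 (mean 0.738 FPKM) did not, and their tests come from the same model without the filter, over 27414 genes. Ltb, at a mean of 1.18 FPKM, passed only through the labelled KO DAMPs group, without which its mean was 0.911 FPKM over 32 libraries, so it is described from the model without the filter where that group enters. Fold changes on this scale understate the change of genes near or below 1 FPKM.

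LPS raised 5 of the 7 tested members and lowered 1 in each genotype. In wild-type macrophages, where LPS raised 19.9% and lowered 35.8% of all genes tested, Tnf, Tnfsf9, Tnfrsf1b, Traf1 and Traf2 rose, Tnfrsf1a fell and Ltb did not pass the test. The calls and directions were the same in labelled KO macrophages, where LPS raised 20.2% and lowered 44.1% of all genes. The labelled KO call of Tnfrsf1a was lost with libraries centred on one median (-0.34, adjusted p = 0.09). Across all genes tested the median log2 change was -0.19 in wild-type and -0.30 in labelled KO macrophages, against which the members' values should be read, and their own medians were 1.43 and 1.53. Dex added to LPS lowered 4 of the 7 members in both genotypes (Tnf, Tnfrsf1b, Traf1 and Traf2) and raised none, beside 17.5% of all genes lowered and 16.6% raised in wild-type and 18.4% and 19.3% in labelled KO macrophages. The Traf2 call in this count was lost in both genotypes with libraries centred on one median and with quantile normalization. The comparisons with LPS alone and with LPS + Dex share the LPS libraries, and those with vehicle share the vehicle libraries.

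Markers of other cells moved with the same treatments, in both directions. The neutrophil sum was 5.26 to 19.5 FPKM in wild-type vehicle, 114 to 134 FPKM with LPS and 34.3 to 52.9 FPKM with LPS + Dex, and 25.7 to 39.3, 102 to 122 and 35.2 to 43.4 FPKM in labelled KO libraries. The dendritic cell sum went from 0.388 to 0.819 FPKM in wild-type vehicle to 38.7 to 112 FPKM with LPS and 1.01 to 1.67 FPKM with LPS + Dex, and from 0.395 to 0.730 to 48.9 to 90.2 and 0.959 to 1.07 FPKM in labelled KO libraries. In labelled KO libraries the fibroblast sum also went from 1.71 to 3.14 FPKM in vehicle to 9.75 to 14.5 FPKM with LPS and 3.27 to 8.28 FPKM with LPS + Dex, whereas in wild-type libraries vehicle (1.57 to 18.6 FPKM) overlapped both LPS (18.2 to 18.7 FPKM) and LPS + Dex (3.30 to 11.4 FPKM). These sums thus rose and fell with Tnf, Tnfrsf1b, Traf1 and Traf2, but the neutrophil sum did so through Camp and the dendritic cell sum through Ccr7. For the fibroblast sum, the fall from LPS to LPS + Dex was without overlap in both genotypes, and the rise with LPS in labelled KO libraries only. Mmp8 went the other way, from a mean of 9.59 FPKM in vehicle to 0.909 FPKM with LPS and 1.47 FPKM with LPS + Dex in wild-type and from 24.1 to 5.47 and 7.93 FPKM in labelled KO libraries. Col1a2, the fibroblast marker most abundant by mean, was lower with LPS as well, unlike the labelled KO fibroblast sum. Its means were 4.53, 2.63 and 1.74 FPKM in wild-type vehicle, LPS and LPS + Dex. In labelled KO libraries they were 0.718, 0.338 and 0.385 FPKM. LPS also lowered the T and NK cell sum (median 16.2 to 2.92 FPKM in wild-type and 11.9 to 2.48 FPKM in labelled KO libraries, without overlap) and the B cell sum (10.1 to 2.76 FPKM and 6.11 to 1.16 FPKM, without overlap). These falls were mostly those of 1 gene in each list. Cd4 went from a mean of 16.5 to 0.959 FPKM in wild-type and from 9.76 to 0.659 FPKM in labelled KO libraries. Cd22 went from 8.91 to 0.425 FPKM and from 4.67 to 0.298 FPKM. The macrophage sum, mostly Lyz2, was 21903 to 27904 FPKM in wild-type vehicle, 16396 to 19266 FPKM with LPS and 29422 to 33921 FPKM with LPS + Dex. In labelled KO libraries vehicle (22891 to 33737 FPKM) overlapped both LPS (16293 to 26453 FPKM) and LPS + Dex (29272 to 41252 FPKM). With Dex alone, under which Tnf and Tnfsf9 fell, the B cell sum fell from 9.10 to 11.8 FPKM in vehicle to 1.84 to 3.24 FPKM in wild-type libraries and from 3.93 to 6.31 FPKM to 1.58 to 2.01 FPKM in labelled KO ones. This fall too was mostly that of Cd22, to a mean of 1.61 FPKM in wild-type and 1.07 FPKM in labelled KO libraries. With Dex alone the neutrophil sum was 18.4 to 32.2 FPKM in wild-type and 61.0 to 80.6 FPKM in labelled KO libraries. The part of these cells in the results for the members and for the lists of the TNF system given further on was not tested.

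**Figure D1:**
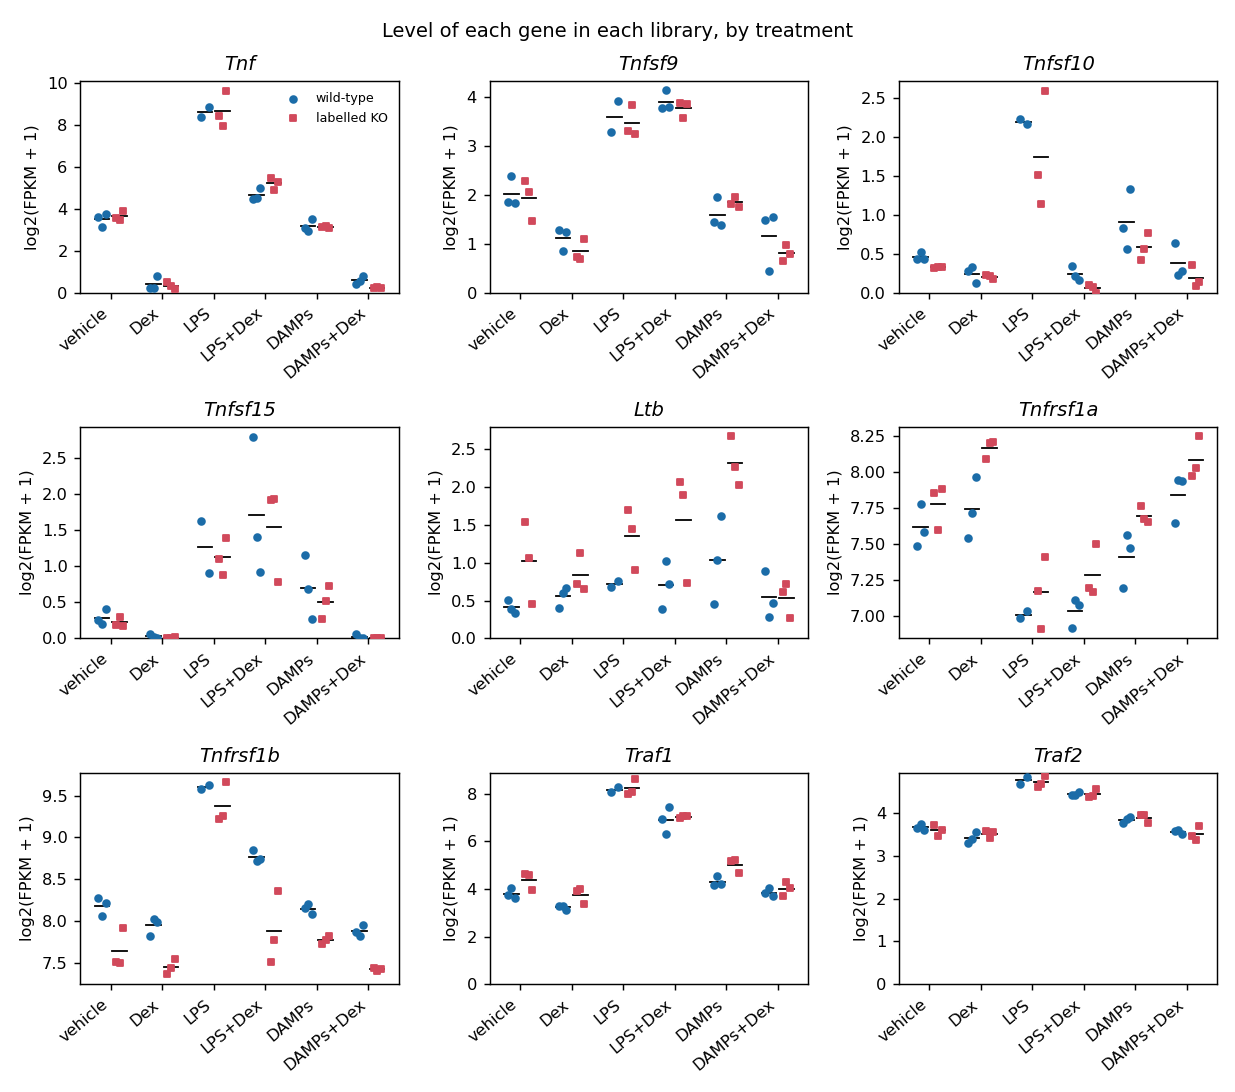
Level of each of the 9 genes, as log2(FPKM + 1), in every library by treatment; circles are wild-type, squares labelled KO, and black lines group means. The y axes differ between panels and those of Tnfrsf1a and Tnfrsf1b do not start at 0; Tnf, Traf1, Traf2 and Tnfrsf1b peak with LPS, Tnfsf9 is as high with LPS + Dex, Ltb is highest in labelled KO DAMPs and Tnfrsf1a is lowest with LPS and LPS + Dex.

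Tnf, the founding cytokine of the family, was measured at 11.2, 7.75 and 12.5 FPKM in the wild-type vehicle libraries and at 331 and 455 FPKM with LPS. With LPS + Dex it stood at 20.8, 22.0 and 30.3 FPKM, above all vehicle and below all LPS libraries. LPS thus raised Tnf 37.5-fold in mean FPKM, a log2 change of 5.11 ± 0.30 (SE; adjusted p = 3.1e-14), and Dex left 6.21% of the LPS level, a fall by 3.96 ± 0.30 on the log2 scale (adjusted p = 2.1e-11). The level under LPS + Dex remained 2.32-fold above vehicle (log2 1.15 ± 0.27, adjusted p = 0.00063), a comparison in which 54.2% of all genes were called in wild-type and 57.4% in labelled KO macrophages. Labelled KO libraries held 10.7, 9.93 and 13.8 FPKM in vehicle, 336, 247 and 780 FPKM with LPS, and 42.4, 28.8 and 37.4 FPKM with LPS + Dex. The order was the same and the 3 groups did not overlap, although replicate 3 of the LPS group was well above the others. With it LPS + Dex stood at 7.97% of LPS, and without it at 12.4%. The corresponding log2 changes were 5.03 ± 0.27 for LPS, -3.45 ± 0.27 for LPS + Dex against LPS, and 1.57 ± 0.27 for LPS + Dex against vehicle (adjusted p = 1.3e-05).

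Without LPS, Dex brought Tnf close to the detection limit. Wild-type Dex libraries held 0.162, 0.174 and 0.716 FPKM, which are 4, 5 and 21 fragments, and labelled KO Dex libraries 0.423, 0.243 and 0.121 FPKM, or 13, 8 and 4 fragments. These means are 3.34% and 2.29% of vehicle (1.60% in wild-type without Dex replicate 3), a fall by 3.09 ± 0.27 and by 3.30 ± 0.27 on the log2 scale (adjusted p = 7.7e-10 and 2.1e-10), beside 14.9% and 16% of all genes lowered and 15.9% and 11.9% raised by Dex. LPS + Dex against Dex, a comparison added after the data had been seen, gave 69.5-fold (145-fold without wild-type Dex replicate 3) and 138-fold higher mean FPKM, with 66.3% and 57.9% of all genes called in either direction. Whether Dex acted more strongly on Tnf with or without LPS depended on the pseudocount. The difference of the Dex effects was -0.16 ± 0.38 in labelled KO macrophages with a pseudocount of 1 (adjusted p = 0.81) and 1.58 ± 0.53 with 0.1 (adjusted p = 0.026), since Dex alone then lowered Tnf by 5.07 on the log2 scale. In wild-type macrophages it was -0.87 ± 0.40 and 0.73 ± 0.56, not called with either.

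DAMPs did not raise Tnf. The wild-type DAMPs libraries held 7.44, 6.71 and 10.3 FPKM and the labelled KO ones 7.82, 7.99 and 7.32 FPKM, log2 differences from vehicle of -0.32 (95% interval -0.87 to 0.22) and -0.51 (-1.05 to 0.04). DAMPs + Dex left 6.17% of the DAMPs level in wild-type (0.335, 0.447 and 0.726 FPKM) and 2.23% in labelled KO macrophages (0.159, 0.204 and 0.152 FPKM), with a fall by 2.59 and by 2.89 on the log2 scale (adjusted p = 1.7e-08 and 2.3e-09). In the same comparison the neutrophil sum went from 7.58 to 16.0 FPKM up to 23.1 to 41.4 FPKM in wild-type and from 22.7 to 43.4 up to 62.3 to 122 FPKM in labelled KO libraries. The wild-type fibroblast sum went from 1.45 to 8.49 up to 9.55 to 18.6 FPKM, while its labelled KO groups overlapped. The wild-type B cell sum went from 12.9 to 20.9 down to 2.73 to 3.79 FPKM and the wild-type T and NK cell sum from 23.0 to 35.6 down to 6.78 to 16.6 FPKM. In labelled KO libraries the B cell sum went from 7.00 to 8.27 down to 1.66 to 2.23 FPKM. The T and NK cell sum went from 16.5 to 21.2 down to 6.11 to 7.40 FPKM there. Most of the neutrophil sum was Mmp8, with means of 10.8 and then 32.9 FPKM in wild-type and 25.9 and then 98.0 FPKM in labelled KO libraries. The part of these sums in the result was not tested. Of all genes, DAMPs changed 2.01% in wild-type and 4.13% in labelled KO macrophages, and DAMPs + Dex against DAMPs raised 11.7% and 13.1% and lowered 12.6% and 12.2%. Among the 12 group means of Tnf, ordered from highest to lowest, 8 of the 11 neighbouring pairs overlapped. The breaks lay below the LPS groups, below the LPS + Dex groups, and between the vehicle and DAMPs groups above and the Dex and DAMPs + Dex groups below.

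**Figure D2:**
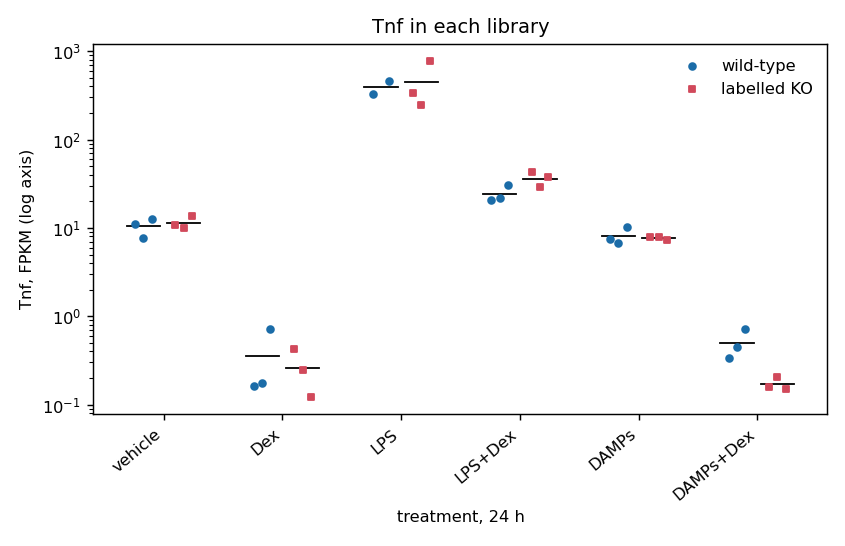
Tnf in each library in FPKM on a log axis, by treatment; circles are wild-type, squares labelled KO, and black lines group means. LPS libraries lie between 247 and 780 FPKM, LPS + Dex libraries between 20.8 and 42.4 FPKM, and all Dex and DAMPs + Dex libraries below 1 FPKM.

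Tnfsf9 (chr17:57105325-57107757, plus strand), the ligand of the costimulatory receptor CD137, was raised by LPS but not lowered when Dex was added. Wild-type libraries held 2.61, 4.21 and 2.56 FPKM in vehicle, 8.76 and 14.1 FPKM with LPS and 12.8, 16.7 and 12.9 FPKM with LPS + Dex. Labelled KO libraries held 3.85, 3.15 and 1.78 FPKM, then 8.95, 13.3 and 8.46 FPKM, then 13.7, 10.9 and 13.5 FPKM. In both genotypes the LPS and LPS + Dex libraries overlapped, and both lay above vehicle. LPS raised Tnfsf9 by 1.58 ± 0.28 and 1.53 ± 0.25 on the log2 scale (adjusted p = 2.4e-05 and 6.4e-06), and LPS + Dex differed from LPS by 0.31 in both, with 95% intervals of -0.27 to 0.88 and -0.21 to 0.82. Dex alone, however, lowered it, to 1.43, 0.790 and 1.38 FPKM in wild-type and 0.656, 0.614 and 1.15 FPKM in labelled KO macrophages (log2 -0.90 ± 0.25 and -1.09 ± 0.25, adjusted p = 0.0077 and 0.0015). The wild-type call was lost without Dex replicate 2 (adjusted p = 0.054) or vehicle replicate 2 (adjusted p = 0.063). The difference between the Dex effects with and without LPS, added after the data had been seen, was 1.20 ± 0.38 in wild-type (adjusted p = 0.016, lost without LPS replicate 2, 0.14, or vehicle replicate 2, 0.053) and 1.40 ± 0.36 in labelled KO macrophages (adjusted p = 0.0035), where 32% and 28.4% of all genes were called in this comparison. DAMPs + Dex lowered Tnfsf9 against DAMPs in labelled KO macrophages (log2 -1.04 ± 0.25, adjusted p = 0.0025) and gave -0.43 (95% interval -0.95 to 0.08) in wild-type ones.

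Tnfsf10 (chr3:27317028-27342427, plus strand), which encodes the apoptosis-inducing ligand TRAIL, rose with LPS and fell when Dex was added, at a far lower level than Tnf. It stood at 3.68 and 3.48 FPKM in wild-type LPS and at 0.261, 0.163 and 0.117 FPKM in LPS + Dex, against 0.345, 0.438 and 0.352 FPKM in vehicle. Labelled KO LPS libraries held 1.84, 1.21 and 5.03 FPKM, and the LPS + Dex ones 0.0674, 0.0546 and 0 FPKM, or 5, 3 and 0 fragments. With LPS + Dex, Tnfsf10 was thus below every vehicle library of its genotype. In the model without the filter, in which 29.1% and 31.4% of all genes were called for LPS and 18% and 17.7% for LPS + Dex against LPS, LPS raised it by 1.73 ± 0.24 and 1.42 ± 0.22 on the log2 scale and LPS + Dex against LPS gave -1.96 ± 0.24 and -1.69 ± 0.22 (adjusted p = 7.3e-07 and 1.1e-06). LPS + Dex against vehicle gave -0.22 and -0.27 and did not pass the test, except in labelled KO macrophages with a pseudocount of 0.1 (-1.35, adjusted p = 0.022).

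Tnfsf15 (chr4:63727084-63745113, minus strand), which encodes the T cell costimulator TL1A, was like Tnfsf9 not called lower when Dex was added to LPS. It was at 0.195, 0.142 and 0.329 FPKM in wild-type vehicle, 2.08 and 0.865 FPKM with LPS, and 5.90, 1.64 and 0.886 FPKM with LPS + Dex. Labelled KO LPS + Dex libraries held 2.78, 2.81 and 0.712 FPKM after 1.14, 0.831 and 1.62 FPKM with LPS. The replicates of both LPS + Dex groups differed several-fold, and they overlapped with LPS. LPS against vehicle gave 0.97 and 0.90 on the log2 scale (adjusted p = 0.04 and 0.031), and LPS + Dex against vehicle gave 1.41 and 1.32 (adjusted p = 0.0011 and 0.002, with 25.3% and 26.5% of all genes called without the filter). The wild-type LPS call was lost in a fit of wild-type libraries alone (0.10) and without wild-type LPS replicate 2 (0.61, adjusted p = 0.44) or any 1 vehicle library (0.055 to 0.090). The labelled KO call was lost without LPS replicate 1 (0.063) or 3 (0.12) or any 1 vehicle library (0.054 to 0.075). Without LPS it was near absent under Dex. In labelled KO DAMPs + Dex all 3 libraries were listed at 0, in wild-type DAMPs + Dex they held 3, 0 and 0 fragments, and the 6 Dex libraries held 0 to 2 fragments each. In the model without the filter, DAMPs + Dex against DAMPs was not called for Tnfsf15 in either genotype. With a pseudocount of 0.1 it was, at -2.55 in wild-type (adjusted p = 0.0023) and -2.29 in labelled KO macrophages (adjusted p = 0.0061).

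Ltb encodes lymphotoxin β, which anchors lymphotoxin α at the cell surface and signals through the lymphotoxin β receptor. It was at 0.422, 0.308 and 0.259 FPKM in wild-type vehicle, at 0.608 and 0.687 FPKM with LPS and at 0.370, 1.04 and 2.07 FPKM with DAMPs, and passed the test in no wild-type comparison with vehicle, LPS or DAMPs. In labelled KO macrophages LPS + Dex against vehicle gave 0.55 ± 0.31 and was not called (adjusted p = 0.13) unless libraries were centred (0.033), quantile normalization was used (0.013) or vehicle replicate 1 (0.043) or LPS + Dex replicate 3 (0.0086) was left out. In labelled KO libraries it was at 1.91, 1.08 and 0.368 FPKM in vehicle and at 5.39, 3.80 and 3.09 FPKM with DAMPs, a log2 difference of 1.31 ± 0.32 in the model without the filter (adjusted p = 0.027, with 1.86% of all genes called). With the filter, which this group itself decided, the call was lost with a pseudocount of 0.1 (adjusted p = 0.059), without DAMPs replicate 1 (0.078) and without vehicle replicate 3 (0.12). With DAMPs + Dex the labelled KO libraries fell to 0.533, 0.653 and 0.203 FPKM, all below the DAMPs libraries (log2 -1.79 ± 0.32 without the filter, adjusted p = 0.00024, with 10.8% of all genes called). The interaction of genotype with this response was -1.30 (95% interval -2.19 to -0.41) and was not called (adjusted p = 1.0). Lymphocytes express Ltb, and lymphocyte lists moved with treatment as well. The summed T cell and NK cell markers, nearly all Cd4, had a median of 20.9 FPKM in labelled KO DAMPs and 11.9 FPKM in labelled KO vehicle, but of 29.8 FPKM in wild-type DAMPs, where Ltb was lower. With DAMPs + Dex this sum was lower, at 6.11 to 7.40 FPKM in labelled KO libraries, as Ltb did. The summed B cell markers, of which Cd22 was the most abundant, likewise moved with Ltb in labelled KO libraries, from 3.93 to 6.31 FPKM in vehicle to 7.00 to 8.27 FPKM with DAMPs and 1.66 to 2.23 FPKM with DAMPs + Dex, and were higher, at 12.9 to 20.9 FPKM, in wild-type DAMPs. Their part in the Ltb values was not tested.

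The 2 TNF receptors moved in opposite directions. Tnfrsf1b (chr4:145213463-145246870, minus strand), which encodes TNFR2, the receptor without a death domain, was at 308, 265 and 295 FPKM in wild-type vehicle, 766 and 791 FPKM with LPS and 459, 421 and 428 FPKM with LPS + Dex. None of these groups overlapped. LPS raised it by 1.43 ± 0.16 on the log2 scale (adjusted p = 1.3e-08), it fell by 0.84 ± 0.16 when Dex was added to LPS (adjusted p = 0.00012), and LPS + Dex stayed above vehicle by 0.59 ± 0.14 (adjusted p = 0.00092). Labelled KO libraries held 182, 179 and 241 FPKM in vehicle, 594, 610 and 808 FPKM with LPS and 181, 218 and 327 FPKM with LPS + Dex. Here LPS + Dex and vehicle overlapped. LPS raised Tnfrsf1b by 1.74 ± 0.14, it fell by 1.50 ± 0.14 when Dex was added to LPS (adjusted p = 1.3e-09), and the difference of LPS + Dex from vehicle, 0.24 ± 0.14, was not called (adjusted p = 0.15) unless the libraries were centred on one median (0.53, adjusted p = 0.0076), LPS + Dex replicate 1 was left out (0.43, adjusted p = 0.013) or vehicle replicate 3 was left out (0.38, adjusted p = 0.037). Dex alone gave -0.23 (95% interval -0.53 to 0.06) and -0.20 (-0.49 to 0.10). The Dex effect was larger with LPS than without in labelled KO macrophages (difference -1.30 ± 0.20, adjusted p = 1.2e-05), whereas the wild-type difference, -0.60 ± 0.21 (adjusted p = 0.031), was lost on centring (-0.44, adjusted p = 0.17), without the filter on low values (adjusted p = 0.055), and without Dex, LPS or LPS + Dex replicate 2 or 3 or vehicle replicate 2 (adjusted p between 0.053 and 0.085).

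Tnfrsf1a (chr6:125349362-125362484, plus strand), which encodes TNFR1, the death domain receptor, was lowered by LPS and not restored by Dex. Wild-type libraries held 179, 219 and 191 FPKM in vehicle, 126 and 130 FPKM with LPS and 120, 137 and 134 FPKM with LPS + Dex. Labelled KO libraries held 231, 193 and 235 FPKM, then 143, 120 and 169 FPKM, then 146, 143 and 180 FPKM. In both genotypes LPS and LPS + Dex overlapped and both lay below vehicle. The log2 change with LPS was -0.61 ± 0.15 and -0.61 ± 0.13 (adjusted p = 0.00084 and 0.00019), and LPS + Dex differed from LPS by 0.03 (95% interval -0.27 to 0.33) and 0.12 (-0.15 to 0.39). The fall was smaller relative to all genes. With the libraries centred on one median it was -0.46 in wild-type (adjusted p = 0.043) and -0.34 in labelled KO macrophages (adjusted p = 0.09), and LPS + Dex against vehicle went from -0.58 and -0.49 (both called) to -0.36 and -0.21 (adjusted p = 0.084 and 0.33). Saa3, an acute-phase protein gene, alone took 16.0% to 24.0% of the summed FPKM in wild-type LPS + Dex, 7.12% to 7.20% in LPS and at most 0.0344% in vehicle, and its part in the Tnfrsf1a values was not tested. DAMPs + Dex raised Tnfrsf1a against DAMPs by 0.43 and 0.39 (adjusted p = 0.014 and 0.03), calls lost on centring (0.066 and 0.17), and in labelled KO macrophages also without the filter on low values (0.056). They were lost as well without wild-type DAMPs replicate 1 (0.10), DAMPs + Dex replicate 2 (0.069) or 3 (0.062) and labelled KO DAMPs replicate 2 (0.079) or 3 (0.078) or DAMPs + Dex replicate 3 (0.15). Dex alone gave 0.13 (-0.14 to 0.39) in wild-type and 0.39 ± 0.13 (adjusted p = 0.027) in labelled KO macrophages, the latter lost without the filter on low values (adjusted p = 0.051) and without Dex replicate 2 (0.077) or 3 (0.074) or vehicle replicate 2 (0.15).

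The ratio of Tnfrsf1b to Tnfrsf1a within a library does not depend on the scaling of libraries. In wild-type libraries it was 1.49 ± 0.26 (SD, n = 3) in vehicle, 6.08 and 6.10 in the 2 LPS libraries and 3.36 ± 0.40 with LPS + Dex. In labelled KO libraries it was 0.912 ± 0.12 in vehicle, 4.67 ± 0.48 with LPS and 1.53 ± 0.29 with LPS + Dex. Within each genotype these 3 groups did not overlap, and at each of these treatments all wild-type libraries lay above all labelled KO libraries. Dex gave 1.16 ± 0.13 and 0.604 ± 0.02, DAMPs 1.68 ± 0.23 and 1.05 ± 0.08, and DAMPs + Dex 1.03 ± 0.13 and 0.631 ± 0.06 in wild-type and labelled KO libraries. The level of the ratio depends on the transcript lengths used. The deposited values divided Tnfrsf1a by 844 bases, the mean of its 6 annotated transcripts, and Tnfrsf1b by 2097 bases, and per longest coding transcript (2156 and 3818 bases) the median vehicle ratios were 2.17 in wild-type and 1.30 in labelled KO libraries. Which receptor was the higher in labelled KO vehicle libraries therefore depended on the lengths, whereas its change between treatments did not.

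**Figure D3:**
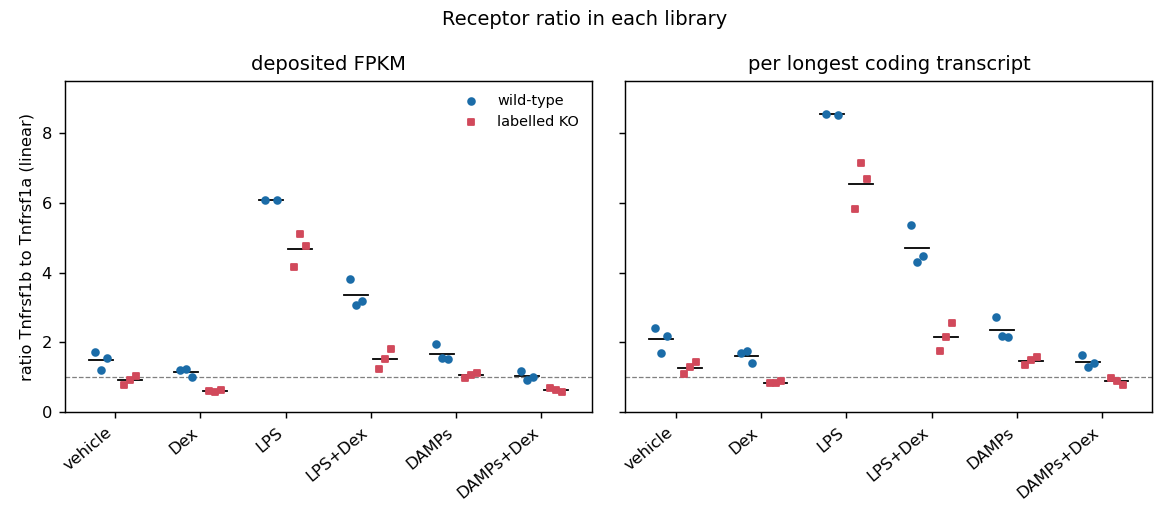
Ratio of Tnfrsf1b to Tnfrsf1a in each library on a linear axis, from the deposited FPKM (left) and per longest coding transcript (right); circles are wild-type, squares labelled KO, black lines group means and the dashed line a ratio of 1. On the left, wild-type LPS libraries lie at 6.08 and 6.10, labelled KO LPS libraries between 4.15 and 5.10, and all Dex and DAMPs + Dex libraries at or below 1.24.

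Both adaptors rose with LPS, fell when Dex was added and stayed above vehicle. Traf1 (chr2:34941750-34961772, minus strand), an NF-κB-induced adaptor that lacks the RING domain of other TRAF proteins, was at 12.6, 15.4 and 11.1 FPKM in wild-type vehicle, 267 and 311 FPKM with LPS and 123, 79.6 and 175 FPKM with LPS + Dex. Labelled KO libraries held 23.6, 23.2 and 14.4 FPKM, then 252, 273 and 392 FPKM, then 125, 133 and 132 FPKM. LPS + Dex lay between vehicle and LPS in every library of both genotypes. LPS raised Traf1 22.2-fold and 15.0-fold (log2 4.38 ± 0.26 and 3.84 ± 0.23, adjusted p = 3.7e-14 and 3.8e-14), and Dex left 43.6% and 42.6% of the LPS level (log2 -1.26 ± 0.26 and -1.20 ± 0.23, adjusted p = 0.0003 and 0.00012). Beside the 6.21% and 7.97% of Tnf that remained (12.4% without labelled KO LPS replicate 3), Traf1 kept a larger share of its LPS level in both genotypes, a difference between the genes that was not tested. Dex alone gave -0.57 ± 0.23 in wild-type (adjusted p = 0.06, called with quantile normalization, 0.033) and -0.62 ± 0.23 in labelled KO macrophages (adjusted p = 0.043, lost on centring, 0.13, with quantile normalization, 0.088, without the filter on low values, 0.094, and without vehicle replicate 1, 0.16, or 2, 0.17, or Dex replicate 3, 0.22). DAMPs + Dex lowered Traf1 against DAMPs in labelled KO macrophages (-1.01 ± 0.23, adjusted p = 0.0014) and gave -0.46 (95% interval -0.93 to 0.01) in wild-type ones.

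Traf2 (chr2:25517982-25546940, minus strand), a RING adaptor that brings ubiquitin ligases to the receptors, moved less. Wild-type libraries held 11.7, 12.4 and 11.2 FPKM in vehicle, 24.9 and 27.9 FPKM with LPS and 20.5, 20.6 and 21.6 FPKM with LPS + Dex, and labelled KO libraries 12.2, 10.1 and 11.3 FPKM, then 23.7, 24.7 and 28.3 FPKM, then 19.8, 20.1 and 22.6 FPKM. None of the 3 groups overlapped within a genotype. LPS raised it by 1.10 ± 0.11 and 1.12 ± 0.10 (adjusted p = 2.2e-09 and 1.2e-10), and LPS + Dex stayed above vehicle by 0.78 and 0.84. Dex alone gave -0.25 ± 0.10 in wild-type (adjusted p = 0.057, called on centring, 0.044, with quantile normalization, 0.032, and without Dex replicate 3, 0.028) and -0.08 (95% interval -0.29 to 0.12) in labelled KO macrophages. The fall from LPS to LPS + Dex was small, -0.32 ± 0.11 and -0.28 ± 0.10 (adjusted p = 0.027 and 0.026), and both calls were lost on centring (adjusted p = 0.2 and 0.096), with quantile normalization (0.22 and 0.19), and without LPS + Dex replicate 1 (0.054 and 0.097), LPS + Dex replicate 2 (0.066 and 0.080) or LPS replicate 3 (0.23 and 0.15). The labelled KO call was also lost in a fit of labelled KO libraries alone (0.063). DAMPs + Dex against DAMPs gave -0.28 ± 0.10 (adjusted p = 0.041) in wild-type, lost on centring (0.11), with quantile normalization (0.10), in a fit of wild-type libraries alone (0.061) and without any of the 6 libraries other than DAMPs replicate 1 (0.062 to 0.13), and -0.38 ± 0.10 (adjusted p = 0.0051) in labelled KO macrophages.

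**Figure D4:**
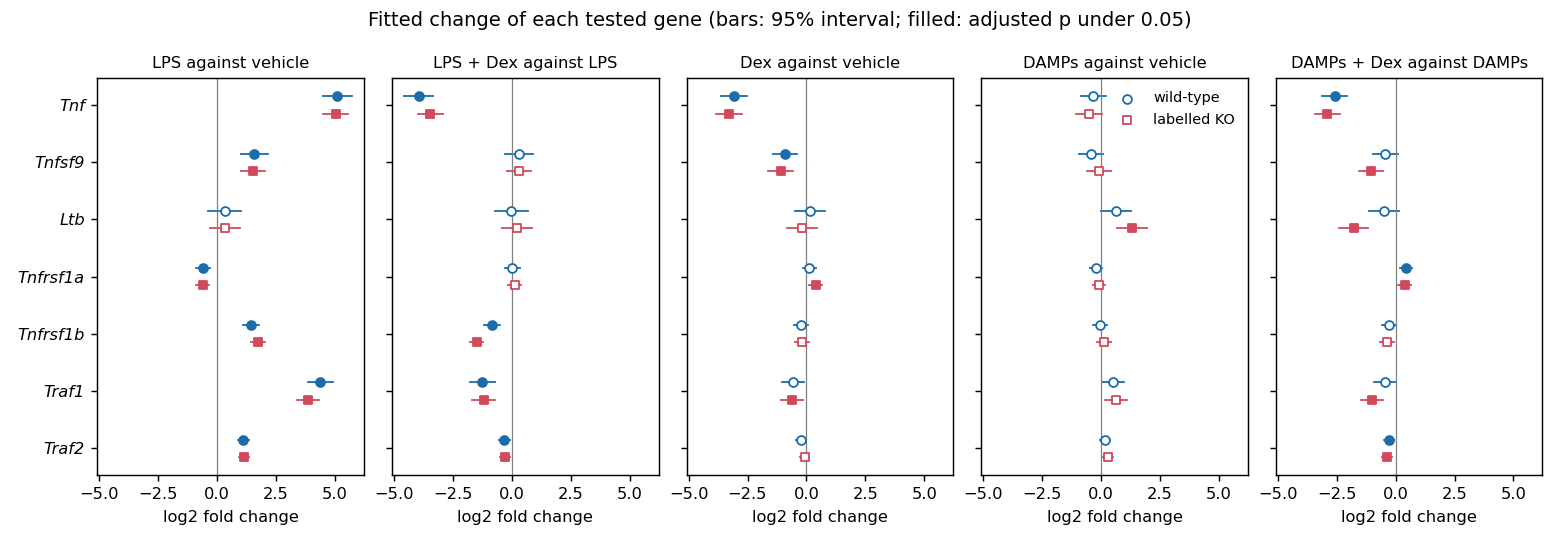
Log2 fold change of the 7 tested members in 5 comparisons, with 95% intervals; circles are wild-type, squares labelled KO, and filled symbols have an adjusted p under 0.05. In LPS + Dex against LPS, Tnf lies at -3.96 and -3.45, Traf1 at -1.26 and -1.20 and Tnfrsf1b at -0.84 and -1.50, while Tnfsf9, Ltb and Tnfrsf1a have open symbols near 0.

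For Dex alone and for DAMPs + Dex, the number of members called differed between the genotypes. Dex lowered 2 members in wild-type (Tnf and Tnfsf9) and, in labelled KO macrophages, lowered 3 (also Traf1) and raised 1 (Tnfrsf1a), against the shares of all genes given above. DAMPs + Dex against DAMPs lowered 2 members and raised 1 in wild-type, where it lowered 12.6% and raised 11.7% of all genes. In labelled KO macrophages it lowered Tnf, Tnfsf9, Traf1 and Traf2 and raised 1 member, where it lowered 12.2% and raised 13.1% of all genes, beside Ltb, which is left out of this count because that group decided its place in the test. These counts do not show a difference between genotypes, which was tested as an interaction. Of the 11354 genes tested 0, or 0%, were called by limma for the interaction with LPS, Dex, LPS + Dex against LPS, DAMPs or DAMPs + Dex against DAMPs, and 514, 2441, 311, 66 and 234 genes had an unadjusted p under 0.05. The largest interactions among the members beside those of Ltb were those of Tnfrsf1b in LPS + Dex against LPS, -0.66 (95% interval -1.10 to -0.22, adjusted p = 1.0), and of Tnfsf9 in DAMPs + Dex against DAMPs, -0.61 (-1.34 to 0.12).

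Between genotypes within one treatment, mean log2 levels of Tnfrsf1b were lower in labelled KO macrophages under all 6 treatments, not called in 4 of them. The log2 difference of labelled KO from wild-type macrophages was -0.54 ± 0.14 in vehicle (adjusted p = 0.093), where 0.432% of all genes and none of the 7 members were called and 700 genes had an unadjusted p under 0.05. Without labelled KO vehicle replicate 3 it was called (-0.68, adjusted p = 0.036). The other treatments were compared after the data had been seen. With LPS + Dex the difference was -0.89 ± 0.14 (adjusted p = 0.00071, with 0.669% of all genes called, 76 genes, and 36 to 110 without 1 library), and the 3 wild-type libraries, at 421 to 459 FPKM, lay above the labelled KO ones, at 181 to 327 FPKM. With Dex it was -0.50 ± 0.14 (adjusted p = 0.016, lost on centring, 0.11, and without labelled KO, 0.083, or wild-type, 0.095, Dex replicate 2), but 26.5% of all genes were called between the genotypes there (3008 genes, and 304 to 3105 without 1 library, fewest without wild-type or labelled KO Dex replicate 2), among them Tnfrsf1a, which was higher by 0.42 ± 0.13 (adjusted p = 0.023, lost with quantile normalization, 0.062, and without labelled KO Dex replicate 2, 0.11, or wild-type Dex replicate 1 or 2, both 0.10). With LPS, DAMPs and DAMPs + Dex, where 0.766%, 0.731% and 1.06% of all genes were called (87, 83 and 120 genes, and 9 to 130, 25 to 55 and 49 to 97 without 1 library), it was -0.23, -0.37 and -0.46, none of them called. Ltb in DAMPs differed by 1.29 ± 0.32 without the filter and was not called (adjusted p = 0.086, with 0.332% of all genes called). Traf1 with Dex differed by 0.54 and was not called, but was on centring (0.048), with quantile normalization (0.031) and without labelled KO Dex replicate 3 (0.031). Tnfsf10 with LPS differed by -0.45 without the filter and was not called, but was without labelled KO LPS replicate 3 (-0.87, adjusted p = 0.003). Other genes near Tnfrsf1b differed between the genotypes as well. Of the 79 genes tested within 5 Mb of it, a window set after the data had been seen, 6 (7.59%) were called in vehicle and 10 (12.7%, Tnfrsf1b included) with LPS + Dex. Prkaa1 lies on another chromosome (chr15:5143861-5181899), and the part of the chromosomal region in the Tnfrsf1b difference was not tested.

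The remaining TNF system was described with 5 lists of genes, given as counts beside all genes, of which LPS + Dex against LPS raised 16.6% and lowered 17.5% in wild-type and raised 19.3% and lowered 18.4% in labelled KO macrophages. Of 13 other ligands of the superfamily 4 were tested. Lta, which encodes lymphotoxin α and lies in the same cluster as Tnf and Ltb, passed the filter only through the LPS libraries (mean 1.50 FPKM, or 0.193 FPKM without them). In the model without the filter it gave 2.94 ± 0.29 with LPS in wild-type and 3.21 ± 0.26 in labelled KO macrophages. It gave -2.76 ± 0.29 and -2.95 ± 0.26 with LPS + Dex against LPS (adjusted p = 6.9e-08 and 2.6e-09). Tnfsf12 (TWEAK) and Tnfsf13 (APRIL, a B cell survival factor) moved the other way, with log2 changes of -2.66 and -2.39 with LPS and 0.81 and 0.98 when Dex was added in wild-type, and -2.74 and -1.95, then 0.83 and 0.85, in labelled KO macrophages. Tnfsf13b (BAFF, also a B cell survival factor) rose with LPS by 1.99 and 1.60 and differed by 0.00 and 0.11 when Dex was added. Among the ligands described, Tnf and, without the filter, Lta and Tnfsf10 were higher with LPS and lower again with LPS + Dex. Tnfsf9, Tnfsf13b and, without the filter, Tnfsf15 were called higher with LPS and not called lower with LPS + Dex. Tnfsf12 and Tnfsf13 moved opposite to Tnf, and Ltb was called in neither comparison, except for LPS in labelled KO macrophages with quantile normalization (0.75, adjusted p = 0.037).

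Of 26 other receptors of the superfamily 14 were tested, 1 of which, Tnfrsf8, passed the filter only through the LPS libraries and is not counted. Of the other 13, in LPS + Dex against LPS 2 rose and 5 fell in wild-type macrophages and 2 rose and 4 fell in labelled KO macrophages, with medians of -0.27 and -0.29 against -0.03 and 0.01 for all genes. The share that rose is near that of all genes. Cd40, the costimulatory receptor of antigen-presenting cells, rose with LPS by 6.34 ± 0.36 and 6.11 ± 0.32 and fell with LPS + Dex by 4.17 and by 3.89. Tnfrsf8 (CD30) had a mean of 1.51 FPKM, or 0.691 FPKM without the LPS libraries. Without the filter it gave 2.19 ± 0.18 and 2.41 ± 0.16 with LPS and -1.29 ± 0.18 and -1.59 ± 0.16 with LPS + Dex against LPS (adjusted p = 4.7e-06 and 2.3e-08). Tnfrsf14 (HVEM) rose with LPS by 1.04 and 0.97 and fell by 1.21 and by 0.95. Relt and Tnfrsf23, a decoy receptor for TRAIL, rose when Dex was added to LPS, by 1.60 and 1.18 and by 1.05 and 0.93.

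Among 25 adaptors and kinases of TNF receptor signalling, 24 were tested. With LPS + Dex against LPS 10 fell in wild-type and 9 in labelled KO macrophages, and 0 rose, with medians of -0.40 and -0.17. Mlkl, the executioner of necroptosis, rose with LPS by 3.08 and 2.92 and fell by 2.98 and by 3.15, and LPS + Dex differed from vehicle by 0.10 and -0.23, neither called. Traf6 fell by 1.75 and by 1.41, Rnf31 (HOIP, which builds linear ubiquitin chains) by 1.29 and by 1.28, Ikbkb (the kinase IKKβ) by 1.00 and by 1.12, and Ripk3 (the kinase that activates MLKL) by 0.92 and by 0.88. Of the 13 genes listed as inhibitors of TNF receptor signals, all tested, 1 rose and 4 fell in wild-type and 2 rose and 2 fell in labelled KO macrophages, shares near those of all genes in the latter. Tnip1, a partner of the deubiquitinase A20, rose with LPS by 2.42 ± 0.10 and 2.38 ± 0.09 and fell by 0.70 and by 0.67, and Rnf11 fell by 0.48 and by 0.34. Traf3ip3 rose by 1.91 and 1.62. It is counted in this list but is not an established inhibitor of these signals. Of 8 genes for the shedding and membrane cleavage of TNF 7 were tested, of which 1 rose and 2 fell in wild-type and 1 rose and 3 fell in labelled KO macrophages, numbers too small to set against those shares. Sppl2a, a protease that cleaves the membrane stub of TNF, fell by 1.96 and by 1.82, and Rhbdf2 (iRhom2, which brings the TNF sheddase ADAM17 to the surface) by 1.22 and by 0.90 after a rise with LPS by 1.46 and 1.28.

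**Figure D5:**
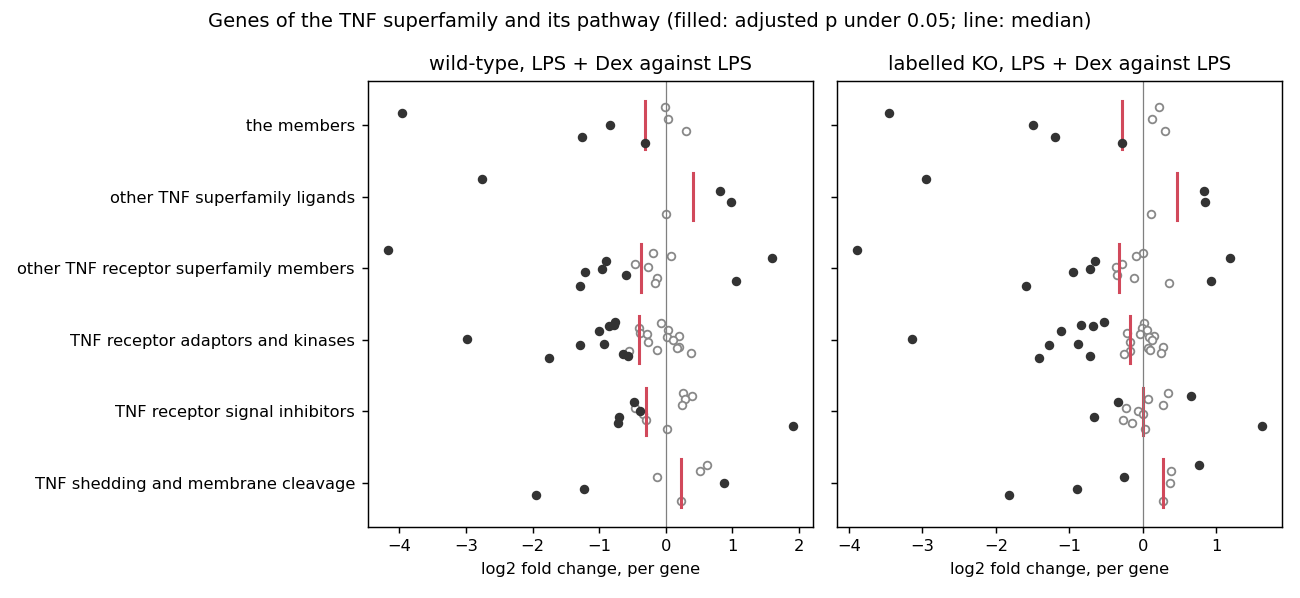
Change from LPS to LPS + Dex, as a log2 fold change, of each tested gene of the members and of the 5 lists, in wild-type (left) and labelled KO macrophages (right); filled points have an adjusted p under 0.05 and red lines are list medians. The list of adaptors and kinases has 10 and 9 filled points, all below 0, and the x axes of the panels differ slightly. The receptors and ligands shown include Tnfrsf8 and Lta, which passed the filter only through the LPS libraries. Without these genes the medians are -0.27 and -0.29 for the receptors and 0.81 and 0.83 for the ligands.

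The genes most alike to each tested member were found by Pearson correlation over the 12 group means of log2(FPKM + 1), which share libraries and treatments, so that high values are common. Tnf was most like Morf4l2 (r = 0.993) and Pla2g4a (0.989), Tnfsf9 like Gk (0.990) and Bnip1 (0.987), Traf1 like Tnip1 (0.994) and Mrpl52 (0.992), and Traf2 like Itgal and Acod1 (both 0.997). Tnfrsf1a was most like Rfxap (0.980) and Zfp64 (0.979), and Tnfrsf1b like Rrbp1 (0.958) and the family member Tnfrsf8 (0.947). Ltb had no close match, with Xlr4a (0.822) and Mfng (0.812) the most alike.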

How the data were processed

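RNA of BMDMs was extracted with TRIzol, and libraries were prepared and sequenced on an Illumina platform by Novogene, per the labels. The authors deposited 1 FPKM value (fragments per kilobase of transcript, scaled to the library) per Ensembl gene and library, with no counts. The submitters' processing notes name Bowtie2 2.2.3, TopHat2 2.0.12, HTSeq 0.6.1, DESeq2 and the builds GRCm38 and mm10, with no role or order. Whether the counting used strand is not given in the sources used here. For 8 of the 9 members the length behind the deposited FPKM, found as the one that gives whole fragments in all 35 libraries (tolerance 0.02), equalled the mean length of the gene's transcripts in GENCODE M21, so levels of different genes depend on the annotated transcripts. With mean transcript lengths, the values of 77.3% to 81.5% of genes below 100 fragments were whole (tolerance 0.01).

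Values were transformed as log2(FPKM + 1), and genes with a mean of at least 1 FPKM over the 35 libraries were fitted with limma 3.58.1 (R 4.3.3; 12 groups, empirical Bayes with trend, 2-sided) with Benjamini-Hochberg adjustment over all genes tested, in 18 comparisons. A further 11 were chosen after seeing the data: LPS + Dex against Dex and LPS against DAMPs in each genotype, labelled KO against wild-type in the 5 treatments other than vehicle, and the Dex effect with LPS minus that without in each genotype. The fit was tested on simulated data. Members and gene lists were chosen with earlier results of these data known. Named were the members, Prkaa1, the macrophage markers (1 of which is not reported here), the most abundant gene of some other marker lists, the tested ligands, in each other list at most 5 genes called in LPS + Dex against LPS in both genotypes with the largest wild-type change, and the 2 genes most alike to each member. Promoters are from RefSeq (GRCm38.p6).

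Replicate numbers come from the sample titles. The study's methods state for the study as a whole that replicates are of individual mice, which the labels do not state for each library. Same-numbered libraries deviated together (every r over 0.1) in 4 of the 11 planned comparisons of 2 groups with 3 pairs, all in labelled KO macrophages: LPS against vehicle (0.12 to 0.32), Dex against vehicle (0.22 to 0.40), LPS + Dex against LPS (0.36 to 0.37) and LPS + Dex against vehicle (0.25 to 0.36). The alternatives were other pseudocounts, filters, scalings, a fit of one genotype, a replicate block, and leaving out each library. Replicates of a group correlated at 0.987 to 0.997 over genes (34 pairs) and shared no identical value above 0.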

Additional observations from a re-analysis of the deposited data

How the results depend on the processing

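The 9 members were refitted in the 29 comparisons, run with a pseudocount of 0.1, without the filter on low values, with a mean of at least 5 FPKM, with libraries centred on one median, with quantile normalization, on one genotype alone, with a replicate block, and without each library in turn, for Tnfsf10 and Tnfsf15 all in the model without the filter (chosen after seeing the data). Of 3455 member values recomputed, 97 lost the call, 24 gained it, and 1 changed sign and was called only in the alternative. This was Tnf for the Dex effect with LPS minus without in labelled KO macrophages. It was -0.16 and not called in the main fit, and 1.58 and called with a pseudocount of 0.1. A further 158 changed sign with no call in either setting. The rise of Tnf, Tnfsf9, Tnfrsf1b, Traf1 and Traf2 with LPS and the fall of Tnf, Tnfrsf1b and Traf1 with LPS + Dex against LPS kept their call in both genotypes under every alternative fitted. The cause of the changes listed next was not tested. Members called for Dex against vehicle went from 2 to 4 in wild-type with quantile normalization (1 to 3 without a library) and from 4 to 2 in labelled KO macrophages without the filter (2 to 4 without a library). For DAMPs + Dex against DAMPs in wild-type they went from 3 to 1 on centring (1 to 2 without a library). For DAMPs against vehicle in labelled KO macrophages the 1 call became 0 with a pseudocount of 0.1 and with a mean of at least 5 FPKM, where Ltb was not tested (0 to 1 without a library). Genes called for DAMPs against vehicle in wild-type went from 228 to 94 in the fit of one genotype and to 26 to 372 without a library, and in labelled KO macrophages from 469 to 267 to 453 without a library. Interactions rose from 0 genes called to 118 (LPS), 21 (Dex), 75 (LPS + Dex against LPS), 2 (DAMPs) and 9 (DAMPs + Dex against DAMPs) without the filter, to 1, 1 and 1 for the first 3 with quantile normalization, to 4 for Dex on centring, and to 0 to 13 (LPS), 0 to 1 (Dex) and 0 to 2 (LPS + Dex against LPS) without a library. Labelled KO against wild-type in vehicle went from 49 genes called to 92 without the filter, 27 with a mean of at least 5 FPKM and 28 to 58 without a library, and members called from 0 to 0 to 1. Leaving out 1 wild-type LPS library leaves 1, assumed to vary like the other groups.

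With the replicate number as a replicate block, no member's call changed in the 4 comparisons in which the numbers paired the libraries. In LPS against vehicle in labelled KO macrophages, which is among these 4, not every library correlated best with its own number. In the other 7 planned comparisons with 3 pairs, libraries share only a number, and in 0 of them did every library correlate best with its own number. There, a replicate block brought the vehicle comparison of genotypes from 49 to 83 genes called and from 0 to 1 member (Tnfrsf1b, adjusted p = 0.041). It brought Tnfrsf1b in labelled KO DAMPs + Dex against DAMPs to an adjusted p of 0.021 from 0.069. The LPS interaction, which is not one of these comparisons, went from 0 to 5 genes with a replicate block. Depth limits Tnf, Tnfsf10, Tnfsf15 and Ltb, of which a library held as few as 4, 0, 0 and 4 fragments.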
